A study of Homo sapiens with 8 samples.

Results

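Inflammasome sensors, the adaptor PYCARD, the inflammatory caspases and gasdermin D were followed in PMA-differentiated THP-1 cells given the anthracycline epirubicin, LPS, both or neither. Members were taken by gene symbol, as NLRP1, NLRP3, NLRC4, AIM2, MEFV, PYCARD, CASP1, CASP4, CASP5 and GSDMD. The list was set with earlier results of these data known. Of these 10 genes, 9 had a named probe set among 17687 genes on the array, and NLRP1, which had none in the platform table used here, is named only.

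The THP-1 line comes from a human monocytic leukaemia and becomes macrophage-like under PMA, which every group received overnight (100 ng/mL). The groups were EPI + LPS (0.25 µg/mL epirubicin over 24 h, and 100 ng/mL LPS over 3 h), EPI (epirubicin alone), LPS (LPS alone) and untreated, with 2 Clariom S HT arrays each. Values are log2 expression as the authors normalized it, so that a difference of 1 is a 2-fold change. No source used here states that the duplicates were separate cultures, so the p-values cover only the variation among these arrays, possibly technical, and 2 arrays per group limit the precision. Every group is a model of 1 cell line, and since RNA came from whole wells, fewer expressing cells and less RNA per cell cannot be told apart.

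Array medians lay between 5.75 and 5.84. Correlations over all probe sets were 0.985 to 0.987 between duplicates and 0.947 to 0.984 between arrays of different groups. Of 8 macrophage markers, 7 had a mean of at least 6 in every group, MRC1 being the exception, against 1 of 4 measured lymphocyte markers (NKG7) and 0 of 5 measured fibroblast and epithelial markers. Group means ranged from 2.85 to 6.93 over the lymphocyte markers and from 2.62 to 5.93 over the fibroblast and epithelial markers. Of the 8 macrophage markers, 5 were lower and 3 higher in EPI + LPS against LPS cells (median −0.06), and 4 were lower and 4 higher in EPI against untreated cells (median 0.01). Those called were CD14, the LPS coreceptor, and FCGR1A, an Fc receptor, which differed by −2.01 and −1.23 in EPI + LPS against LPS cells and by −1.04 and −1.43 in EPI against untreated cells. The part of these markers in the results below was not tested.

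Inflammasomes are cytosolic complexes in which a sensor recruits the adaptor ASC, the product of PYCARD, and through it the protease caspase-1. Caspase-1 matures interleukin-1β and interleukin-18 and cuts gasdermin D, whose freed end forms pores in the plasma membrane and leads to the lytic death called pyroptosis. In human macrophages caspase-4 and caspase-5 bind LPS in the cytosol themselves and also cut gasdermin D, while TLR4 signalling from the cell surface raises the transcription of several of these genes, a step called priming. Arrays measure this transcript level and not complex assembly or cleavage.

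A change was called at an unadjusted p of at most 0.01 and at least 2-fold, the threshold of the study, in a limma model over all 21448 gene probe sets, and adjusted p-values are Benjamini-Hochberg values over the same probe sets. With epirubicin, 1 of 9 measured members was called in EPI + LPS against LPS cells, a fall of CASP5, beside 2.66% of all probe sets. In EPI against untreated cells limma called 0 of 9 members, beside 2.26% of all probe sets. With LPS, 3 members were called in EPI + LPS against EPI cells (NLRC4 and PYCARD, which fell, and CASP5, which rose), beside 12.1% of all probe sets. In LPS against untreated cells 2 were called (PYCARD, which fell, and CASP5, which rose), beside 11.7%.

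The choice of threshold mattered for these counts. At an unadjusted p of at most 0.05, limma called 2 members in EPI + LPS against LPS cells, beside 10.9% of all probe sets. These were NLRP3 and CASP5, both lower. It called 2 in EPI against untreated cells too, beside 10.2%, with NLRP3 again lower but CASP5 higher. At that limit it called 7 members in EPI + LPS against EPI cells, beside 25.1%, and 4 in LPS against untreated cells, beside 23.8%. At an adjusted p of at most 0.05 it called 0 members in either epirubicin comparison, beside 0.103% of all probe sets with LPS and 0.014% without it. In both LPS comparisons it called 3 members, beside 11.8% with epirubicin and 11.4% without it.

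Signs and medians were counted over all measured members, called or not. The log2 fold change was negative for 8 of 9 members in EPI + LPS against LPS cells, AIM2 among them at −0.00, beside 49.4% of all probe sets, with a median of −0.41 beside 0.01 over all probe sets. In EPI against untreated cells it was negative for 6 of 9, beside 50.4%, with a median of −0.54 beside −0.00. Both epirubicin arrays lay below both comparison arrays for 5 members in EPI + LPS against LPS cells (NLRP3, NLRC4, PYCARD, CASP4 and CASP5), against 20.3% of all probe sets, and above them for GSDMD, against 21.3%. In EPI against untreated cells they lay below for 5 members (NLRP3, PYCARD, CASP1, CASP4 and GSDMD), against 20.9%, and above for MEFV and CASP5, against 20.5%. The 3 genes NLRP3, PYCARD and CASP4 lay below in both comparisons, which share no array, as did 6.67% of all probe sets.

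With LPS, both arrays lay above both arrays without it for 4 members in EPI + LPS against EPI cells (NLRP3, CASP4, CASP5 and GSDMD), beside 23.6% of all probe sets, and below them for 3 (NLRC4, MEFV and PYCARD), beside 28.7%. In LPS against untreated cells they lay above for 3 (NLRP3, CASP4 and CASP5), beside 23.1%, and below for 2 (PYCARD and GSDMD), beside 29.7%. The members' median was 0.61, beside −0.03 over all probe sets, in EPI + LPS against EPI cells and −0.17, beside −0.05, in LPS against untreated cells.

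**Figure D1:**
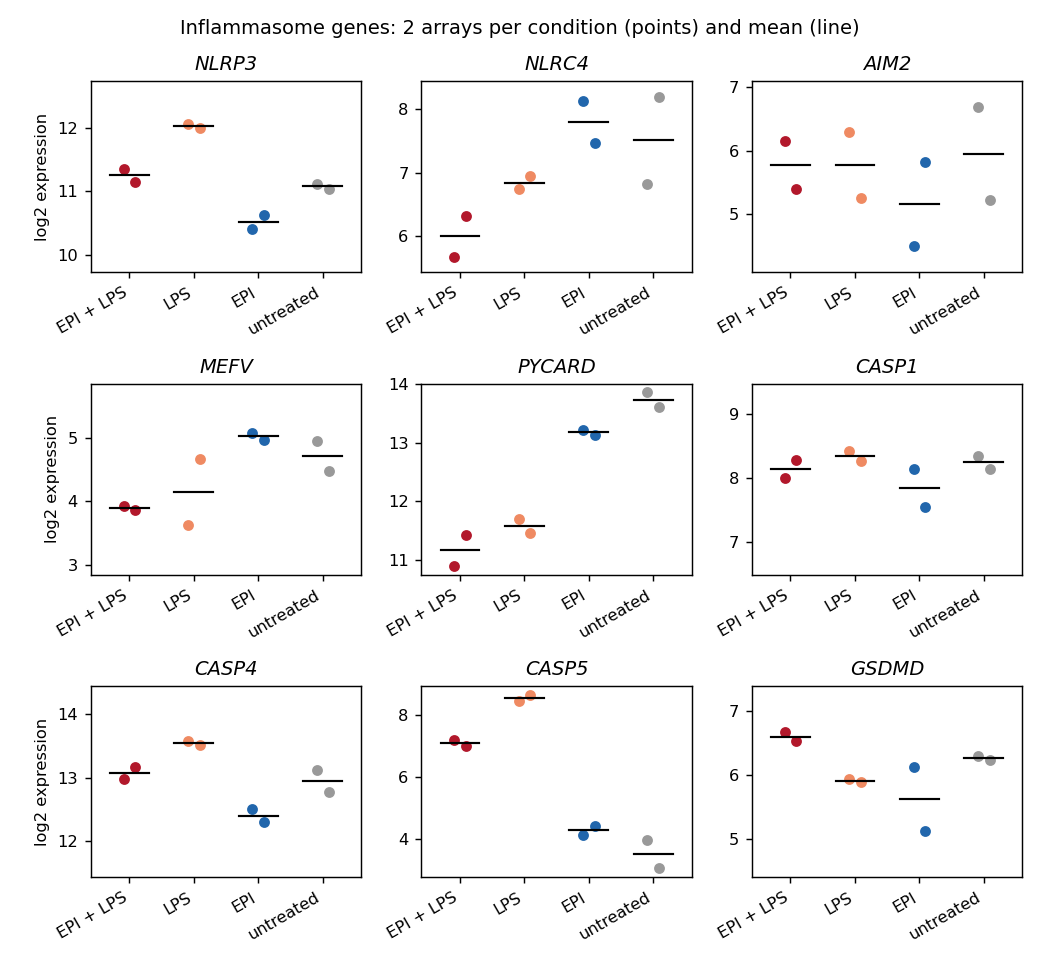
Log2 expression of the 9 measured members, 1 panel per gene, with points for the 2 arrays of each group, short lines for group means, and vertical axes that differ between panels. CASP5 is far higher on the 4 LPS arrays and lower in EPI + LPS than in LPS cells, PYCARD is lower on the 4 LPS arrays, and the points of AIM2 overlap between all groups.

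Among the sensors, NLRP3, which responds to potassium efflux and other signs of membrane damage, was ordered without overlap between neighbouring groups. It measured 11.35 and 11.15 in EPI + LPS cells, against 12.05 and 11.99 in LPS cells. It measured 10.41 and 10.62 in EPI cells, against 11.12 and 11.04 in untreated cells. Epirubicin arrays were thus the lower ones with and without LPS, and the largest gap between duplicates was 0.208. The lowest EPI + LPS array (11.15) and the highest untreated array (11.12) were closer to each other than that gap.

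The NLRP3 difference was −0.77 (SE 0.23, 95% confidence interval −1.30 to −0.25, n = 2 each, limma adjusted p = 0.28) in EPI + LPS against LPS cells, 1.71-fold and thus short of the fold threshold. Over the alternatives its adjusted p lay between 0.0416 and 0.536. Without LPS the difference was −0.56 (SE 0.23, −1.09 to −0.04, limma adjusted p = 0.456). With LPS, NLRP3 was 0.73 higher in EPI + LPS than in EPI cells (SE 0.23, limma adjusted p = 0.0805) and 0.94 higher in LPS than in untreated cells (SE 0.23, limma adjusted p = 0.0336), which is 1.92-fold. All 4 LPS arrays were above all 4 arrays without LPS, and neither LPS comparison reached 2-fold.

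NLRC4, which binds NAIP proteins loaded with bacterial flagellin or secretion system parts, was lowest in EPI + LPS cells. It measured 5.68 and 6.32 in EPI + LPS cells, against 8.12 and 7.47 in EPI cells. It measured 6.74 and 6.95 in LPS cells, against 6.82 and 8.19 in untreated cells. Arrays with and without LPS did not overlap under epirubicin, while without it LPS duplicate 2 lay above untreated duplicate 1.

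NLRC4 fell by 1.79 on the log2 scale in EPI + LPS against EPI cells (SE 0.46, −2.85 to −0.73, 3.46-fold, limma adjusted p = 0.0415). The call was lost without EPI duplicate 1 and without EPI + LPS duplicate 1, where the difference was −1.47 each time with limma adjusted p = 0.198 and adjusted p = 0.192. In LPS against untreated cells the difference was −0.66 (SE 0.46, limma adjusted p = 0.457). The difference between the LPS effects was −1.13 (SE 0.65, limma adjusted p = 0.795), so a larger NLRC4 change under epirubicin was not shown. EPI + LPS against LPS cells differed by −0.84 (SE 0.46, −1.91 to 0.22).

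AIM2, a sensor of double-stranded DNA in the cytosol, and MEFV, which encodes the sensor pyrin, were dim, with group means below 6, so the sizes of their differences are uncertain. AIM2 ranged from 4.51 to 6.68 over the 8 arrays, the groups overlapped throughout, and the gap between duplicates reached 1.46. The AIM2 difference in EPI + LPS against LPS cells was −0.00, with an interval from −1.41 to 1.41 that holds changes of over 2-fold in either direction. MEFV measured 3.92 and 3.87 in EPI + LPS cells, against 5.08 and 4.96 in EPI cells. These arrays were clearly apart, and the difference of −1.12 (SE 0.36, 2.18-fold, limma adjusted p = 0.0851) missed the threshold on the unadjusted p.

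The adaptor PYCARD was the member with the largest decrease under LPS. It measured 10.89 and 11.42 in EPI + LPS cells, against 13.22 and 13.13 in EPI cells. It measured 11.69 and 11.46 in LPS cells, against 13.86 and 13.61 in untreated cells. All 4 arrays with LPS lay below all 4 without it. PYCARD fell by 2.02 on the log2 scale in EPI + LPS against EPI cells (SE 0.27, 4.05-fold, limma adjusted p = 0.0019) and by 2.16 in LPS against untreated cells (SE 0.27, 4.48-fold, limma adjusted p = 0.00136).

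Epirubicin arrays of PYCARD were also below their comparison arrays, at smaller size. The difference was −0.41 (SE 0.27, −1.03 to 0.20, limma adjusted p = 0.625) in EPI + LPS against LPS cells and −0.56 (SE 0.27, −1.17 to 0.05, limma adjusted p = 0.518) in EPI against untreated cells. The LPS effects differed by 0.15 (SE 0.38). No epirubicin difference of PYCARD passed the threshold.

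Of the caspases, only CASP5 passed the threshold, in 3 of the 4 comparisons. CASP1, whose product is the protease of the canonical inflammasome, ranged from 7.54 to 8.42 over the 8 arrays with all neighbouring groups overlapping. In LPS against untreated cells it differed by 0.10 (SE 0.28, −0.54 to 0.73, limma adjusted p = 0.886) and in EPI + LPS against LPS cells by −0.20 (SE 0.28, limma adjusted p = 0.852). The interval for LPS against untreated cells does not contain a 2-fold change. In EPI against untreated cells, where both EPI arrays were the lower ones, CASP1 differed by −0.41 (SE 0.28, −1.04 to 0.23, limma adjusted p = 0.67). That interval does contain a 2-fold fall.

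CASP4, the constitutive LPS-binding caspase of human cells, was bright on all arrays. It measured 12.97 and 13.16 in EPI + LPS cells, against 13.57 and 13.52 in LPS cells. It measured 12.51 and 12.31 in EPI cells, against 13.12 and 12.78 in untreated cells. Epirubicin arrays were lower in both comparisons, by −0.48 (SE 0.24, limma adjusted p = 0.523) with LPS and −0.54 (SE 0.24, limma adjusted p = 0.492) without it, and LPS arrays were higher, by 0.66 and 0.60 (limma adjusted p = 0.128 in EPI + LPS against EPI cells and 0.174 in LPS against untreated cells), none of it past the threshold.

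CASP5, the LPS-binding caspase closest to CASP4, had the strongest response of the members. It measured 7.19 and 6.99 in EPI + LPS cells, against 8.45 and 8.64 in LPS cells. It measured 4.13 and 4.41 in EPI cells, against 3.96 and 3.04 in untreated cells. All 4 LPS arrays were above all 4 others, and epirubicin arrays lay below their comparison arrays with LPS but above them without it.

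CASP5 rose by 5.05 in LPS against untreated cells (SE 0.33, 4.30 to 5.80, 33.1-fold, limma adjusted p = 3.86e-05) and by 2.82 in EPI + LPS against EPI cells (SE 0.33, 2.07 to 3.57, 7.05-fold, limma adjusted p = 0.000963). Both untreated values of CASP5 lay below 4.03, the lower quartile of probe set means over all 8 arrays. Both EPI values, 4.13 and 4.41, lay little above it. The folds with LPS in both comparisons, and the difference between these 2 groups, are thus uncertain in size. In EPI + LPS against LPS cells CASP5 fell by 1.46 (SE 0.33, −2.21 to −0.71, 2.75-fold, limma adjusted p = 0.174). That call was lost when LPS duplicate 2 or EPI + LPS duplicate 2 was left out, where the difference was −1.36 each time. In EPI against untreated cells CASP5 was 0.77 higher (SE 0.33, 0.02 to 1.53, limma adjusted p = 0.47), short of the threshold.

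Gasdermin D, the pore-forming substrate, had no called change, and its group means lay on either side of 6. It measured 6.67 and 6.53 in EPI + LPS cells, against 5.94 and 5.89 in LPS cells. It measured 6.13 and 5.12 in EPI cells, against 6.30 and 6.24 in untreated cells. The EPI + LPS arrays were the highest of all 8, and EPI duplicate 2 was the lowest. GSDMD was 0.69 higher in EPI + LPS than in LPS cells (SE 0.33, −0.07 to 1.44, limma adjusted p = 0.501) and differed by −0.65 in EPI against untreated cells (SE 0.33, −1.40 to 0.11, limma adjusted p = 0.551). Without EPI duplicate 2 the difference in EPI against untreated cells was −0.15, and without EPI duplicate 1 it was −1.15. In EPI + LPS against EPI cells GSDMD was 0.98 higher (SE 0.33, 1.97-fold, limma adjusted p = 0.104). With 1 array left out at a time this difference ranged from 0.47 to 1.48, so its size and its place against the 2-fold limit hung on single arrays. In LPS against untreated cells GSDMD differed by −0.36 (SE 0.33, limma adjusted p = 0.595).

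**Figure D2:**
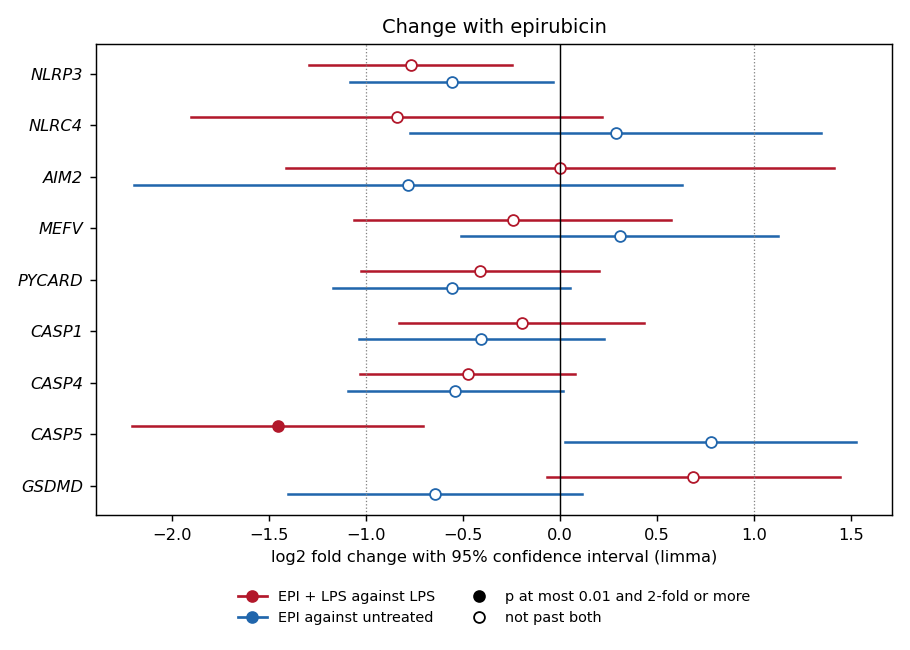
Log2 fold change of each measured member with epirubicin, in EPI + LPS against LPS cells and in EPI against untreated cells, as points with 95% confidence intervals from limma. Filled points pass both limits of the threshold, which CASP5 does at −1.46 with LPS. NLRP3 with LPS lies at −0.77, short of 2-fold, with an interval from −1.30 to −0.25. Most other points lie left of 0 with intervals that reach or nearly reach it.

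**Figure D3:**
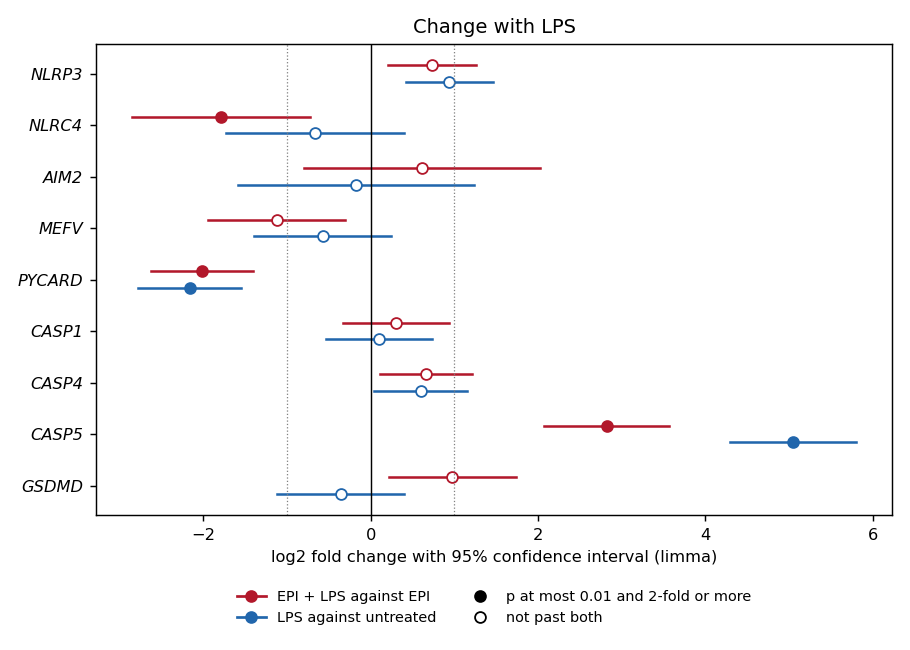
Log2 fold change of each measured member with LPS, in EPI + LPS against EPI cells and in LPS against untreated cells, as points with 95% confidence intervals from limma and dotted lines at 2-fold. PYCARD lies near −2 in both comparisons, and CASP5 lies at 2.82 with epirubicin and at 5.05 without it.

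Whether epirubicin altered the LPS response was tested as the difference between the LPS effect with and without it. At the study's threshold limma called 1 of 9 members, CASP5, beside 1.62% of all probe sets. At an adjusted p of at most 0.05, the call set for this difference, limma called 0 of 9 members, beside 0.00466% of all probe sets, and at an unadjusted p of at most 0.05 CASP5 and GSDMD were reached, against 7.3%. The CASP5 difference was −2.23 (SE 0.46, −3.30 to −1.17, limma adjusted p = 0.535), and the GSDMD difference was 1.33 (SE 0.47, 0.26 to 2.40, limma adjusted p = 0.626). For NLRP3 it was −0.21 (SE 0.32, limma adjusted p = 0.947). Over the 9 members the median was 0.06, beside 0.01 over all probe sets. Of the 49 other pathway genes described below, GBP1, GBP2 and IL1RN passed the study's threshold for this difference and 0 passed at an adjusted p of at most 0.05 in limma.

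CASP4, CASP5, CASP1 and the CASP1 inhibitor CARD16 follow one another in this order on chromosome 11 in the RefSeq annotation. CARD16 is nearly identical to the first part of CASP1, and CASP4 and CASP5 are close paralogs. Probe sequences were not used here, so signal shared between these genes was not tested. CARD16 measured 10.39 and 10.43 in EPI + LPS cells, against 11.18 and 10.82 in LPS cells, and 10.23 and 10.04 in EPI cells, against 10.37 and 10.79 in untreated cells. Its values passed the threshold in no comparison.

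CASP5 and PYCARD changed most in opposite directions, and CASP4 is a neighbour of CASP5 that passed the threshold in no comparison. CASP1, the coding neighbour on the other side, also passed it in none, but had no sequence among the promoters used here. The promoters of CASP5, CASP4 and PYCARD are shown from RefSeq (GRCh38.p14) as the 250 bases upstream of the start site. They lie at chr11:105023169-105023418 for CASP5, chr11:104968575-104968824 for CASP4 and chr16:31202761-31203010 for PYCARD, all on the minus strand and read 5′ to 3′. Capitals mark matches, on either strand, to the interferon response core TTTCNNTTTC, the AP-1 site TGANTCA, the PU.1 core GAGGAA, the STAT site TTCNNNGAA and an NF-κB motif.
CASP5: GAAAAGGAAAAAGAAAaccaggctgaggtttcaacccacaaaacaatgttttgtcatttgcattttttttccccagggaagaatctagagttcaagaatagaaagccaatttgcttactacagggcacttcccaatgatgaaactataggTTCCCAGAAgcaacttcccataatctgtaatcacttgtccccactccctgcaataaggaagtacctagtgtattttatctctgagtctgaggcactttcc
CASP4: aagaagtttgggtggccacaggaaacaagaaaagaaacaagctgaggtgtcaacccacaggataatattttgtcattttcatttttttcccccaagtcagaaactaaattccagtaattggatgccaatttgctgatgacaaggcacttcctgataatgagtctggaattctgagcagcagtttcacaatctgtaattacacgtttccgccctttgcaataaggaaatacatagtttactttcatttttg
PYCARD: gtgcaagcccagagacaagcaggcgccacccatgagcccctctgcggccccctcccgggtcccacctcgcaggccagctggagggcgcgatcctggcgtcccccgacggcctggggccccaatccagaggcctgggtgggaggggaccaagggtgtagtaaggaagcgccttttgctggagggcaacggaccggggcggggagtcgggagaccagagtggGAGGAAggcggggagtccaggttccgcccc

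The CASP5 and CASP4 promoters were identical at 174 of 231 aligned bases (75.3%), against 43.7% to 50.9% for the other pairs among these 3 and NLRP3. The CASP5 window held 2 overlapping matches to the interferon response core on the minus strand, from −250 to −241 and from −244 to −235, which 3.02% of 35116 promoters hold at least once, and a STAT site from −100 to −92, held by 6.57%. The CASP4 window held no match to the 5 motifs. The PYCARD window, 71.2% G and C, held a PU.1 core from −30 to −25, as 23.6% of promoters do. The NF-κB motif, held by 5.21% of promoters, and the AP-1 site, held by 6.57%, were found in none of the 3 windows. Windows of NLRP3, NLRC4, AIM2 and MEFV were scanned too. AIM2, called in no comparison, also held the interferon response core, from −190 to −181, and an AP-1 site, from −155 to −149. A PU.1 core was found for NLRP3 and NLRC4, and no match for MEFV. A match describes these letters only, and the absence of one says nothing of the factor.

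By the mean absolute difference of values centred on each gene's own mean over 8 arrays, LRIG1 (0.266), THBS1 (0.343) and HBEGF (0.368) had the profiles nearest to CASP5, beside a median of 1.99 over 17708 candidates. SLC35F6 (0.121), ZER1 (0.128) and ENG (0.133) were nearest to PYCARD, beside a median of 1.03. ZNF398 (0.203), ZNF296 (0.230) and FN3KRP (0.231) were nearest to NLRC4, beside a median of 0.716. This is a description of likeness over these arrays. LRIG1, THBS1 and HBEGF rose by 5.05, 4.59 and 4.70 in LPS against untreated cells. In EPI + LPS against LPS cells they differed by −0.93, −0.39 and −0.66, beside −1.46 for CASP5.

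Of the other genes of the pathway, 49 were measured in 4 lists. In EPI + LPS against LPS cells 4 of them were called, beside 2.66% of all probe sets. The receptor antagonist IL1RN measured 12.29 and 12.21 in EPI + LPS cells, against 9.73 and 9.27 in LPS cells, and rose by 2.75 (SE 0.42, limma adjusted p = 0.0771). TLR4, the LPS receptor, measured 9.11 and 9.37 in EPI + LPS cells, against 8.01 and 7.79 in LPS cells, and rose by 1.34 (SE 0.24, limma adjusted p = 0.108).

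Those arrays did not overlap for either gene. GBP1, a guanylate-binding protein that coats bacteria and brings caspase-4 to their LPS, rose by 1.41 (SE 0.31, limma adjusted p = 0.172), and IL18BP, the secreted interleukin-18 antagonist, fell by 1.26 (SE 0.37, limma adjusted p = 0.28). In EPI against untreated cells 2 of the 49 were called, beside 2.26% of all probe sets, namely IL18BP, which fell by 2.21 (SE 0.37, limma adjusted p = 0.154), and GBP2, which fell by 1.45 (SE 0.31, limma adjusted p = 0.208). The list medians lay between −0.02 and 0.49 in EPI + LPS against LPS cells and between −0.20 and 0.05 in EPI against untreated cells.

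With LPS, 21 of the 49 were called in EPI + LPS against EPI cells, beside 12.1% of all probe sets, and 19 in LPS against untreated cells, beside 11.7%, and the list medians lay between −0.48 and 0.79 and between −0.71 and 0.52 in these comparisons. Among other sensors and sensor partners, 8 of 17 were called in EPI + LPS against EPI cells and 9 in LPS against untreated cells, where GBP2 rose by 3.93, the pannexin channel PANX1 by 3.24 and the ATP receptor P2RX7 by 2.29, and TXNIP, a partner of NLRP3, fell by 2.89. Among substrates and effectors, 6 of 11 were called in EPI + LPS against EPI cells and 4 in LPS against untreated cells. IL1B, the chief caspase-1 substrate, measured 17.20 and 17.00 in EPI + LPS cells, 17.62 and 17.76 in LPS cells, 6.95 and 7.16 in EPI cells and 6.41 and 6.95 in untreated cells. Its LPS arrays were thus all far above the rest, with a rise of 10.05 in EPI + LPS against EPI cells and of 11.01 in LPS against untreated cells. Both EPI + LPS arrays of IL1B lay below both LPS arrays, as for 20.3% of all probe sets, and that difference was not called.

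IL18, the other caspase-1 substrate, stayed between 9.38 and 9.99 on all 8 arrays and was called in no comparison. NINJ1, which drives the final rupture of the membrane, rose by 3.43 in EPI + LPS against EPI cells and by 2.84 in LPS against untreated cells. Among inhibitors 3 of 12 were called in each LPS comparison, and TNFAIP3, which restrains NF-κB signalling, rose by 5.69 in EPI + LPS against EPI cells and by 5.17 in LPS against untreated cells. Among upstream receptors and transcription factors, 4 of 9 were called in EPI + LPS against EPI cells, where TLR4 fell by 1.82 and the NF-κB subunit NFKB1 rose by 4.43, and 3 of 9 in LPS against untreated cells, where they changed by −2.60 and 4.71.

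**Figure D4:**
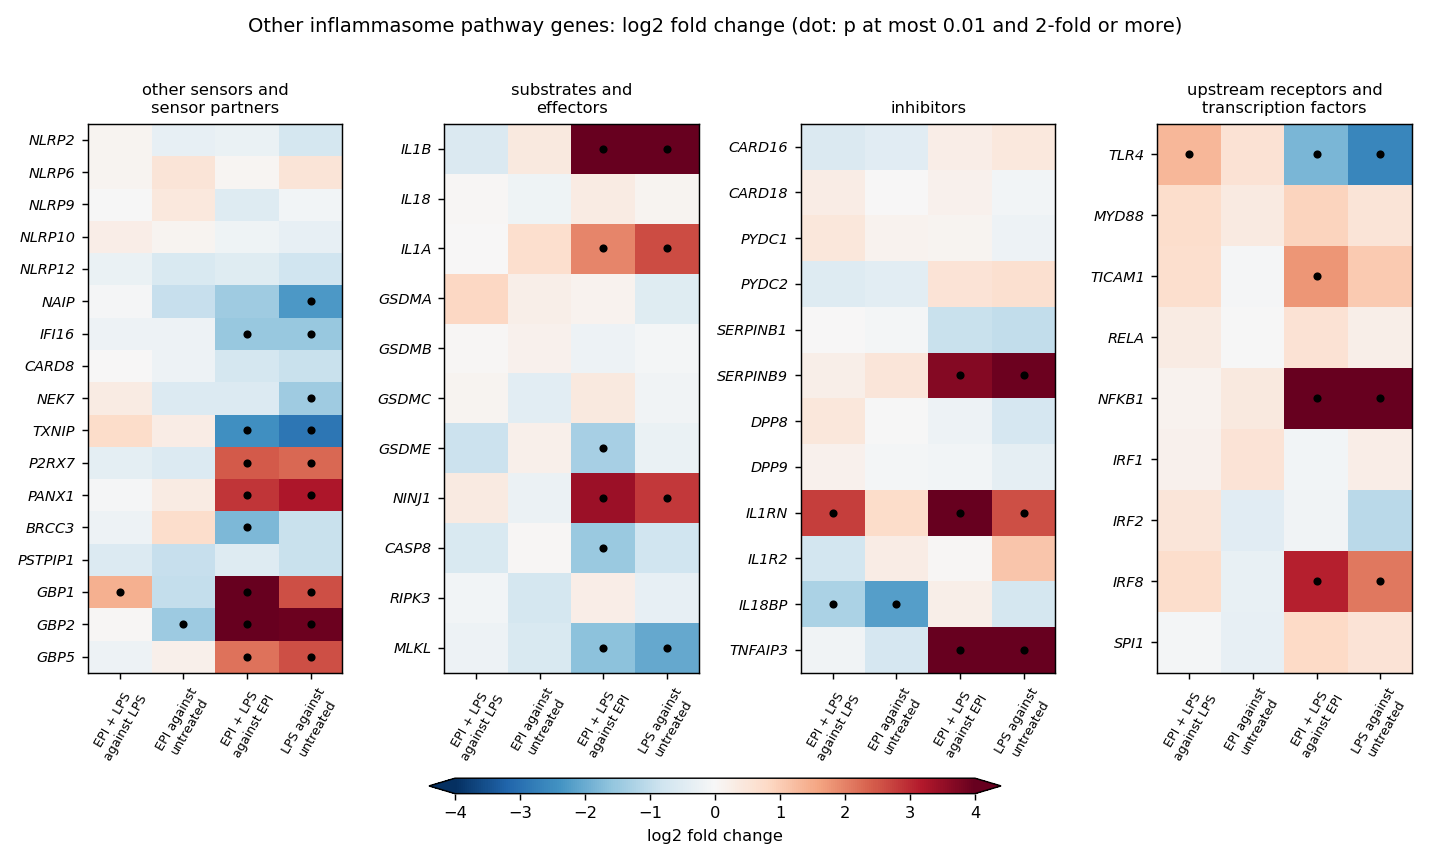
Log2 fold changes of the 49 other measured pathway genes, with genes down each panel, the 4 comparisons as columns, colour for the log2 fold change (saturating at 4) and dots where p is at most 0.01 and the change at least 2-fold. IL1RN, TLR4 and GBP1 rise and IL18BP falls in EPI + LPS against LPS cells, while most dots stand in the LPS columns.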

How the data were processed

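Log2 expression values of 8 Clariom S HT arrays were used as the authors deposited them. The authors normalized the arrays together, with a method named SST-RMA in the paper's methods but RMA in the labels, of a version not stated there. Of 24351 rows, 2903 control rows were left out, and 21448 probe sets were tested. Gene names came from the platform table, in which 17709 probe sets have 1 symbol and 3739 none or several. Each listed gene that was matched had 1 probe set. Detection calls were not used here.

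The 4 groups were fitted in 1 model with limma 3.58.1 (R 4.3.3), with 4 residual and 4.25 prior degrees of freedom. The threshold followed the paper. For the difference between the LPS effects, a call needed an adjusted p of at most 0.05. Members and lists were chosen with earlier results of these data known, so lists were counted without set tests. Outside the members, genes were named if called with epirubicin, or among up to 4 per list with the smallest p for LPS against untreated cells. A further rule named the 3 nearest profiles of each called member. CARD16 and IL18 were added after their values were seen. The fit was tested on simulated data. Prior variance, normalization, filter, arrays fitted, threshold, block and left-out arrays were varied. Figures used Python 3.11.15 and matplotlib 3.10.9.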

Additional observations from a re-analysis of the deposited data

Results flagged for a closer look

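For CASP5 and GSDMD, the epirubicin arrays lay on opposite sides of their comparison arrays with and without LPS, without overlap. Only the CASP5 fall in EPI + LPS against LPS cells passed the threshold among these 4 differences. For CASP5 both EPI + LPS arrays lay below both LPS arrays and both EPI arrays above both untreated arrays, a pattern of 2.81% of all probe sets, and the difference of LPS effects was −2.23 (limma adjusted p = 0.535, 0.205 to 0.741 over the alternatives). For GSDMD both EPI + LPS arrays lay above both LPS arrays and both EPI arrays below both untreated arrays, a pattern of 2.92% of all probe sets, and the difference was 1.33 (limma adjusted p = 0.626, 0.433 to 0.783 over the alternatives). Untreated CASP5 values lay below the lower quartile of probe set means and EPI values little above it. The size of the CASP5 difference of LPS effects is thus uncertain. Without EPI duplicate 2 the GSDMD difference was 0.83, and its difference in EPI against untreated cells was −0.15. Both differences of LPS effects missed the limit of 0.05 on the adjusted p, and CASP5 passed the study's threshold of an unadjusted p of at most 0.01 and 2-fold.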

How the results depend on the processing

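The counts of called members kept within 1.5 times under another prior variance, median centring, quantile normalization, only the arrays of the comparison, only probe sets of at least 6 and the replicate block. With duplicate number as a replicate block, 1 member was called in EPI + LPS against LPS cells and 0 in EPI against untreated cells. Under it 3 were called in EPI + LPS against EPI cells and 2 in LPS against untreated cells. The counts were the same without the block. The share of all probe sets was taken only from the model of all 8 arrays without a block. In the pairs of groups compared here, deviations of same-numbered arrays correlated at −0.0080 to 0.0235, so no strong effect shared by same-numbered arrays was seen. Whether the arrays were prepared as pairs cannot be told from this. At an adjusted p of at most 0.05, limma called 0 members and 0 pathway genes in EPI + LPS against LPS cells, beside 0.103%. In EPI against untreated cells it called 0 and 0, beside 0.014%. It called 3 members in EPI + LPS against EPI cells, beside 11.8%, and 3 in LPS against untreated cells, beside 11.4%. At an unadjusted p of at most 0.05 it called 2 members and 8 pathway genes in EPI + LPS against LPS cells, beside 10.9% of all probe sets. In EPI against untreated cells it called 2 and 8, beside 10.2%. With LPS it called 7 members in EPI + LPS against EPI cells, beside 25.1%, and 4 members and 30 pathway genes in LPS against untreated cells, beside 23.8%. For the difference of LPS effects it called 2 and 6, beside 7.3%. With a mean-dependent prior, robust or not, 2 pathway genes (GBP1 and GBP2) were called for that difference, against 0. Leaving out 1 array at a time, the lone array of a group being taken to vary like the others, gave 0 to 1 members and 2 to 4 pathway genes in EPI + LPS against LPS cells, 0 to 1 and 1 to 3 in EPI against untreated cells, and 2 to 3 members in EPI + LPS against EPI cells. Without untreated duplicate 1 CASP5 was called in EPI against untreated cells (1.23), and without EPI duplicate 1 GSDMD was (−1.15), against −0.15 without EPI duplicate 2. In EPI + LPS against EPI cells GSDMD ranged from 0.47 to 1.48 over the left-out arrays, on either side of 2-fold. NLRP3 reached 2-fold in LPS against untreated cells after median centring (1.00), and MEFV was called in EPI + LPS against EPI cells with quantile normalization (−1.16) and with only those 4 arrays (−1.12).

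Among differences that missed the threshold, AIM2 in EPI + LPS against LPS cells turned sign with quantile normalization (0.00015), and others turned sign when an array was left out. In EPI + LPS against LPS cells AIM2 ranged from −0.52 to 0.51 and MEFV from −0.77 to 0.28. NLRC4 in EPI against untreated cells ranged from −0.40 to 0.97. In EPI + LPS against EPI cells AIM2 ranged from −0.047 to 1.27. In LPS against untreated cells AIM2 ranged from −0.90 to 0.56, NLRC4 from −1.35 to 0.027 and CASP1 from −0.0053 to 0.20. The difference of LPS effects ranged from −0.11 to 0.23 for CASP4, from −0.087 to 0.50 for CASP1 and from −0.12 to 0.41 for PYCARD. The cause was not tested. Averaging several probe sets per gene was not run, since each matched gene had 1.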
